A study of Mus musculus with 8 samples.

Results

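Haematopoietic stem cells (HSC) were compared with multipotent progenitors (MPP) in all 8 libraries of the series, 4 libraries of each cell type, with 1 HSC and 1 MPP library for each of 4 donor genotypes. Both populations were sorted from mouse bone marrow as LSK cells, which lack lineage markers and carry Sca-1 and Kit. HSC were the CD48- CD150+ LSK cells and MPP the CD48+ CD150- LSK cells. The comparison is described across 53700 genes, of which 12132 had enough counts to be tested, and mainly across the 4670 genes with a mean of at least 50 CPM (read counts scaled to the size of each library). Of these, 1269 differed in the same direction in all 4 genotype pairs, 560 higher in HSC (12.0%) and 709 lower (15.2%).

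The donors were labelled WT (Nfat5 +/+ with Vav-Cre), N5 (Nfat5 fl/fl with Vav-Cre), IFNAR (deficient in the type I interferon receptor chain IFNAR1) and DKO (both defects). Vav-Cre is a recombinase driven by a promoter active in blood-forming cells. All libraries hold CD45.2+ donor cells that had been transplanted into irradiated CD45.1 wild-type recipients and were sorted 13 weeks later, 5 mice in each pool. Each library is therefore 1 pool of transplanted marrow, and the sources used here do not say whether the HSC and MPP pools of a genotype came from the same mice.

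HSC sustain blood formation for life by self-renewal, and most are out of the cell cycle in adult marrow. MPP have lost long-term self-renewal, divide more often and already transcribe low levels of lymphoid or myeloid genes, a state called lineage priming. A share of HSC is known to be biased towards megakaryocytes, the cells that shed platelets, and both populations carry receptors for cytokines and interferons. In pooled cells, fewer cells of a type and less RNA per cell cannot be told apart.

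The start regions of 4 genes are shown because their transcripts mark the poles of the comparison. Slamf1 encodes the sorting marker CD150, Mycn a MYC family transcription factor, Cd34 a progenitor sialomucin and Dntt the terminal transferase that adds nucleotides to antigen receptor joints. Each sequence is the 250 bases before the RefSeq start on the gene's own strand in GRCm38.p6, an earlier build than the GRCm39 that the counts used. Capitals mark the motif GATAA, the core bound by GATA factors.
Slamf1 (chr1:171766882-171767131, + strand): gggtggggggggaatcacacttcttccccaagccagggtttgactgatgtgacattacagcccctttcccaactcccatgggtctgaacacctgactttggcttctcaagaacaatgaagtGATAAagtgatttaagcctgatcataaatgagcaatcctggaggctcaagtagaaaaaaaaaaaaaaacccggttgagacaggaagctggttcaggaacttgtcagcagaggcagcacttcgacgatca
Mycn (chr12:12941837-12942086, - strand): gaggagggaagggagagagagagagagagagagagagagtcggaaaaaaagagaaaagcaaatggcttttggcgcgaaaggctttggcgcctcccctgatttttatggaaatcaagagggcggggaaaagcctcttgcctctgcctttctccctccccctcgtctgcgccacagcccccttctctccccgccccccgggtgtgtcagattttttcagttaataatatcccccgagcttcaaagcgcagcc
Cd34 (chr1:194938571-194938820, + strand): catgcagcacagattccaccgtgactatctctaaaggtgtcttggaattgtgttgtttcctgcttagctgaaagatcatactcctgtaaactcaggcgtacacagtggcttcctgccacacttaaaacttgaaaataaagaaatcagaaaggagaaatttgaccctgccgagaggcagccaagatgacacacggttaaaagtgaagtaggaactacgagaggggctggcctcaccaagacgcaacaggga
Dntt (chr19:41029025-41029274, + strand): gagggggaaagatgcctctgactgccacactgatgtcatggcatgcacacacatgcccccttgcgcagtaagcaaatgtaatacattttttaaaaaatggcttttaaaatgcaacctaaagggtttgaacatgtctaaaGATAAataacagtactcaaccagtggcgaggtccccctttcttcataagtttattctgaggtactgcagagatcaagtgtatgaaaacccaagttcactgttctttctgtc
One GATAA stood in the Slamf1 window and 1 in the Dntt window, both on the printed strand. Searched on both strands, GATAA was in 23% of the same windows of 27025 genes. Neither strand of the 4 windows held the RUNX core TGTGGT, the E-box CACGTG, the box with CCAAT in its centre or the ETS core GGAAGT. Among the genes that passed the tests below, these motifs were described only as shares. Windows were matched for 46 genes higher in HSC and 34 lower. GATAA was in 17.4% of the former and 17.6% of the latter. The RUNX core was in 6.52% and 23.5%, against 14.2% of all windows. GGAAGT was in 15.2% and 20.6%, against 20% of all. CCAAT was in 30.4% and 41.2%, against 34.5% of all. CACGTG was in 0 and 1 of these windows and in 6.05% of all.

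Total counts ran from 28871693 to 47205950, and 13510 to 14781 genes had a count. HSC libraries were less alike than MPP libraries. Over the genes at 50 CPM or more, the median absolute log2 ratio was 0.468 to 0.517 between HSC libraries, 0.339 to 0.390 between MPP libraries and 0.510 to 0.565 between HSC and MPP of a genotype. The 18S rRNA gene Rn18s took 4.09% to 5.38% of counts in HSC and 3.43% to 4.05% in MPP, without overlap, and mitochondrial genes took 1.86% to 2.12% and 1.76% to 2.56%. Of the genes at 50 CPM or more, 16 to 26 were at 0 in an HSC library and 6 to 10 in an MPP library. The part of these differences in the results below was not tested. The targeted transcripts followed the labels only in part, and in some libraries ran against them. In the order WT, N5, IFNAR, DKO, Nfat5 had 33.2, 22.7, 3.12 and 35.5 CPM in HSC and 5.59, 7.69, 0.193 and 11.5 CPM in MPP. In both cell types its lowest library was that labelled IFNAR and its highest that labelled DKO. Ifnar1 had 122, 126, 113 and 35.1 CPM in HSC, lowest in that labelled DKO, and 37.2, 87.9, 43.8 and 125 CPM in MPP, highest in that labelled DKO. A count over a whole gene does not show whether a part of it was deleted. The summed interferon response genes, given below, were lower in the libraries labelled IFNAR and DKO in both cell types. Genotype names below are labels.

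Values are CPM after library scaling, with the 4 genotype labels always in the order WT, N5, IFNAR, DKO. With edgeR's quasi-likelihood test, genotype as a block and Benjamini-Hochberg adjustment over all 12132 genes, Dntt and Cd34 passed at 0.05 (0.0165% of genes tested). Tested over the 4670 genes at 50 CPM or more alone, 99 passed (2.12%), 57 higher in HSC (1.22%) and 42 lower (0.899%). The verbs rose and fell, the fitted fold changes and the adjusted p-values below refer to that second fit unless the fit over all genes is named. Of the 99, 34 had a mean under 50 CPM in 1 cell type and so entered that fit through the cell type in which they were high, as did 14.7% of the 4670 genes. Counts of list members at 50 CPM or more are therefore descriptions. They stand beside 2251 genes higher and 2419 lower in HSC over the 4670, with 12.0% and 15.2% so in all 4 pairs. Of the 99, 98 lay in the same direction in all 4 pairs and 95 had libraries that did not overlap between the cell types. These counts follow largely from the calls themselves. Among the 4670 genes, 1269 and 633 did so. Leaving out any 1 library removed both calls over all genes and left 26 to 58 calls at 50 CPM or more. With genotype as a block, the partner of the missing library adds little to the comparison, so these 8 fits are not separate checks. In all 8 of those fits 19 genes were called, among them Dntt, Cd34, Nkg7, Serpinb1a and BC035044 lower in HSC, and Apoe, Mycn, Serpina3g, Adgrg1, Uba7, Ifitm1, Car2, Txnip, Esam, Cavin1, Tbxas1 and Hacd4 higher. Under limma-voom at 50 CPM or more 15 of the 19 were called, without Dntt, BC035044, Cavin1 and Hacd4.

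The labelled cell types were checked first on their sorting genes, which the gates used and which are therefore a description. Slamf1 had 88.7, 67.2, 52.2 and 90.0 CPM in HSC, and in MPP it was at 0 in 3 libraries and at 0.0275 CPM in that labelled IFNAR. Cd48, the other gate marker, was at 0 in 3 HSC libraries and at 6.36 CPM in that labelled IFNAR, against 202, 271, 284 and 237 CPM in MPP. Both genes separated the groups as the gates did. Kit, the stem cell factor receptor shared by both gates, lay between 1087.5 and 1157.1 CPM in HSC and between 773.3 and 1009.9 CPM in MPP. It was higher in each HSC library than in each MPP library, but did not pass (adjusted p = 0.138). Ly6a, which encodes Sca-1, the other shared marker, had 304, 228, 137 and 120 CPM in HSC and 93.1, 150, 45.2 and 54.5 CPM in MPP. It was higher in HSC in all 4 pairs, with overlap between the groups, and did not pass (adjusted p = 0.0677).

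Cd34 and Dntt, which the gates did not use, passed over all genes. Cd34 had 314, 247, 194 and 221 CPM in HSC and 1680.5, 1529.6, 1418.9 and 1240.9 CPM in MPP. Every MPP library lay far above every HSC library, and Cd34 fell 6.07-fold in HSC over all genes (log2 fold change -2.60, SE 0.12, adjusted p = 0.0158). Dntt had 655, 621, 570 and 198 CPM in MPP. In HSC it was at 0 in 3 libraries and at 0.0290 CPM, 1 count, in that labelled WT (adjusted p = 0.00430 over all genes). With limma-voom it passed over all genes (adjusted p = 0.0176) and not at 50 CPM or more (adjusted p = 0.536). The MPP library labelled DKO was the lowest of its group for both genes.

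**Figure D1:**
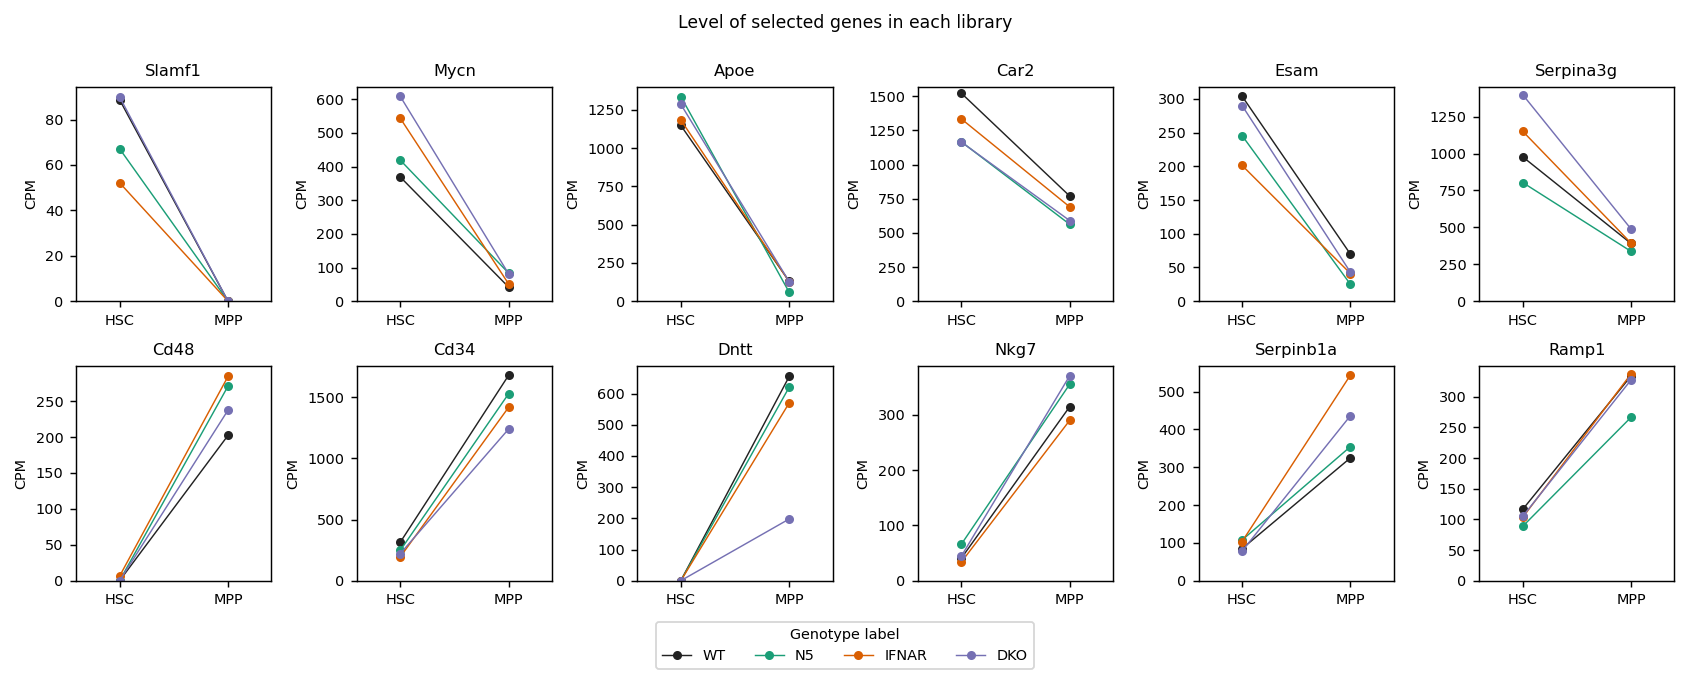
Level of 12 genes in CPM on linear axes that start at 0, 1 point per library, with lines joining HSC and MPP of the same genotype label. Mycn, Apoe, Car2, Esam and Serpina3g were higher in each HSC library than in each MPP library, and Cd34, Dntt, Nkg7, Serpinb1a and Ramp1 were lower. Slamf1 and Cd48 are the sorting genes.

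Transcription factors of stem cells were mostly higher in HSC, but few passed. Of 14 measured at 50 CPM or more, 12 were higher and 3 rose, with a median log2 difference of 0.87 against -0.02 over all genes at that level. Mycn had 369, 420, 544 and 609 CPM in HSC and 41.9, 83.6, 51.3 and 81.3 CPM in MPP. Its lowest HSC library stood well above its highest MPP library, and the fitted difference between the cell types was 8.00-fold (adjusted p = 0.00244). Mllt3, a chromatin reader linked to HSC self-renewal, had 248, 158, 196 and 127 CPM against 18.6, 13.6, 35.2 and 3.79 CPM (adjusted p = 0.0126). It entered that fit through HSC, and its adjusted p over all genes was 0.143. Gata2, a GATA factor needed for HSC, had 318, 326, 520 and 509 CPM against 173, 157, 107 and 94.3 CPM (adjusted p = 0.0442). The groups did not overlap for either gene. Meis1, a HOX cofactor, had 364, 527, 324 and 401 CPM against 184, 321, 214 and 245 CPM, and did not pass (adjusted p = 0.0525). Hlf, another HSC factor, overlapped between the groups, with 50.6 to 136 CPM in HSC and 52.7 to 72.0 CPM in MPP. Of 3 genes at 50 CPM or more in the list of Hox genes and cofactors, none passed edgeR's test, with 1 at an unadjusted p under 0.05 and 1 called by DESeq2. Of 15 stem score genes taken from single-cell studies, which partly overlap these lists, 13 were higher and 3 rose (Mllt3, Ifitm1 and Sult1a1), with a median of 1.45. Of the 15, 7 were under 50 CPM in 1 cell type, Mllt3 and Sult1a1 among them.

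Surface and signalling genes of stem cells were mostly higher in HSC. Of 20 measured at 50 CPM or more, 18 were higher in HSC, 6 rose and none fell, with a median of 1.67. Of the 20, 10 were under 50 CPM in 1 cell type, among them 3 of the 6 that rose (Esam, Tie1 and Tgfbr3). Esam, an adhesion molecule of endothelium and HSC, had 304, 246, 202 and 290 CPM in HSC and 69.8, 25.0, 41.0 and 42.9 CPM in MPP (adjusted p = 0.00634). Its groups lay apart.

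Tie1, a receptor tyrosine kinase better known from endothelium, had 358, 318, 269 and 272 CPM in HSC and 18.6, 51.9, 29.3 and 79.5 CPM in MPP (adjusted p = 0.0183). The TGF-beta co-receptors moved the same way. Eng (endoglin) had 730, 556, 653 and 708 CPM against 226, 358, 241 and 193 CPM (adjusted p = 0.0257), and Tgfbr3 had 109, 135, 128 and 177 CPM against 16.2, 26.2, 2.48 and 15.0 CPM (adjusted p = 0.0407). Cd81, a tetraspanin, rose 1.75-fold (adjusted p = 0.0432). Tek, the angiopoietin receptor, was at 0 in 3 MPP libraries and at 41.5 CPM in that labelled WT, which overlapped the HSC range of 40.3 to 194 CPM (adjusted p = 0.139). Procr, which encodes the HSC surface marker EPCR, had 114 to 194 CPM against 40.0 to 60.6 CPM without overlap, and did not pass (adjusted p = 0.0623). Endothelial markers were checked beside these genes. The 12 stroma and endothelium markers summed to 46.7 to 146 CPM in HSC and 192 to 299 CPM in MPP. Pecam1, the 1 member at 50 CPM or more, had 15.45, 63.1, 99.4 and 49.8 CPM in HSC and 114, 121, 171 and 183 CPM in MPP. The MPP sums therefore rest largely on that gene, and the part of stroma or endothelium was not tested. Cdh5, Col1a1, Col3a1, Pdgfra and Lepr were at 0 in all 8 libraries.

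Genes outside the stem cell lists rose with them. Apoe, the apolipoprotein that carries cholesterol out of cells, had 1147.8, 1336.5, 1183.3 and 1285.8 CPM in HSC and 129, 57.7, 128 and 128 CPM in MPP, a fitted difference of 12.2-fold (adjusted p = 0.00244). Of 9 cholesterol export and lipoprotein genes at 50 CPM or more it alone passed, and of 9 cholesterol synthesis and uptake genes edgeR called 0, with 0 at an unadjusted p under 0.05 and 0 by DESeq2. Adgrg1, an adhesion G protein-coupled receptor, was among the most abundant genes that passed, with 2934.3, 3184.3, 2566.3 and 3033.9 CPM against 1352.7, 1670.9, 1131.6 and 1681.7 CPM (adjusted p = 0.00339). Serpina3g, a protease inhibitor of blood cells, had 978, 804, 1151.3 and 1399.4 CPM against 391, 337, 393 and 489 CPM (adjusted p = 0.00293). The cell types lay apart in every library for these genes.

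Cavin1, a coat protein of membrane caveolae, had 230, 201, 173 and 175 CPM against 17.7, 24.9, 34.8 and 15.6 CPM (adjusted p = 0.00634). Its partner Cavin2 had 70.7, 167, 111 and 66.5 CPM in HSC and 0 counts in all MPP libraries, at least 1116-fold higher against a floor of 3 counts per library. Its mean reached 50 CPM only through HSC, and its adjusted p was 0.0121 in that fit and 0.216 over all genes. Hacd4, an enzyme of very long fatty acid synthesis, rose 9.92-fold (adjusted p = 0.00634). Aldh1a1, a retinaldehyde dehydrogenase, had 355, 338, 112 and 227 CPM against 15.8, 37.3, 36.3 and 12.7 CPM (adjusted p = 0.0257). Cavin1, Hacd4 and Aldh1a1 had means under 50 CPM in MPP too and entered that fit through HSC. Over all genes their adjusted p-values were 0.0719, 0.07085 and 0.189. Grb10, an imprinted adaptor of growth factor receptors, had 83.3, 133, 76.4 and 99.9 CPM against 8.04, 16.1, 25.5 and 5.24 CPM. Its mean also reached 50 CPM only through HSC, and its adjusted p was 0.0431 in that fit and 0.225 over all genes. Among other imprinted genes, Igf2, H19, Meg3 and Dlk1 had means of 0 to 0.530 CPM in either cell type.

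**Figure D2:**
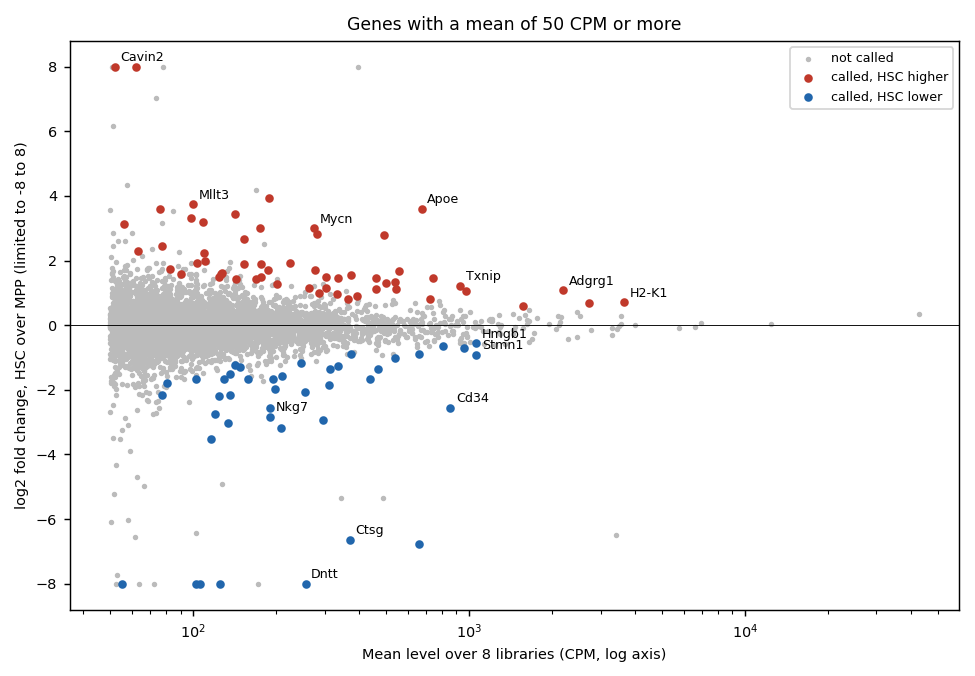
Log2 fold change of HSC over MPP against mean CPM (log axis) for the 4670 genes with a mean of 50 CPM or more, 1 point per gene, with 57 genes called higher in HSC in red and 42 called lower in blue. Fold changes beyond -8 or 8 are drawn at those limits, and calls reach the most abundant genes such as H2-K1 and Adgrg1 at small fold changes.

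Megakaryocyte and platelet genes were higher in HSC. Of 13 at 50 CPM or more, 12 were higher, 11 of them in all 4 pairs, and 3 rose, with a median of 1.26. Among those 3 were Cavin2 and Mmrn1, which encodes the platelet granule protein multimerin 1, and both were under 50 CPM in MPP. Mmrn1 had 294, 273, 487 and 331 CPM in HSC and 4.60, 29.8, 31.6 and 51.8 CPM in MPP (adjusted p = 0.0201). Vwf, which encodes von Willebrand factor, had 174, 279, 111 and 51.5 CPM in HSC, and in MPP it was at 0 in 2 libraries and at 2.35 and 2.66 CPM in those labelled N5 and DKO. Its groups lay apart, but it did not pass (adjusted p = 0.0726). Plek, a platelet signalling protein also made in leukocytes, was the 1 member lower in HSC (log2 -1.46, adjusted p = 0.138).

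Tbxas1, F2r and Slc18a2, which were outside that list, also passed. Tbxas1, thromboxane synthase, rose from 36.5 to 115 CPM in MPP to 422 to 565 CPM in HSC (adjusted p = 0.00634). F2r, a thrombin receptor, rose from 82.0 to 125 CPM to 240 to 439 CPM (adjusted p = 0.00634). Slc18a2, a vesicular monoamine transporter, rose from 70.4 to 87.1 CPM to 225 to 311 CPM (adjusted p = 0.00634). These genes were named after their values were seen.

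Erythroid, mast cell and basophil genes had 6 members at 50 CPM or more, 1 of which rose: Car2, a carbonic anhydrase, with 1520.9, 1165.7, 1333.1 and 1163.5 CPM in HSC and 768, 562, 689 and 589 CPM in MPP (adjusted p = 0.00499). Car1, its erythroid relative, lay the other way, with 0 to 9.97 CPM against 46.0 to 219 CPM, and did not pass (adjusted p = 0.276). Over all 14 members tested the median was -2.17, against 1.17 for those at 50 CPM or more, so the sign of the list depends on the abundance limit.

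Lymphoid priming genes were mostly lower in HSC. Of 12 at 50 CPM or more, 9 were lower, 6 of them in all 4 pairs, and 3 fell, Dntt and Ighm among them, with a median of -1.26. All 3 that fell were under 50 CPM in HSC. The other 3 members were higher in HSC in all 4 pairs and did not pass. Ltb, the cytokine lymphotoxin beta, had 140, 140, 106 and 175 CPM in HSC and 35.1, 64.3, 77.8 and 44.1 CPM in MPP without overlap (adjusted p = 0.103). Gimap1, a GTPase of lymphocytes, and Bcl11a, a lymphoid transcription factor, overlapped between the groups (adjusted p = 0.127 and 0.432). Flt3, the receptor that marks lymphoid-primed progenitors, had 16.2, 0, 49.2 and 37.0 CPM in HSC and 712, 649, 720 and 557 CPM in MPP. Its groups lay apart, but it did not pass (adjusted p = 0.102). Ikzf1, an early lymphoid transcription factor, overlapped, with 38.5 to 194 CPM against 116 to 313 CPM.

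Of the list of mature B cell markers, 2 were at 50 CPM or more, Ighm and Igkc, and both were lower in HSC. Ighm, the immunoglobulin mu constant region and a member of both lists, had 25.7, 0, 16.0 and 30.7 CPM in HSC and 947, 852, 1838.9 and 1537.7 CPM in MPP (adjusted p = 0.0426). Igkc, the kappa constant region, had 0, 13.5, 1.43 and 0 CPM against 429, 123, 513 and 291 CPM, and did not pass (adjusted p = 0.0844). The 13 B cell markers summed to 60.0 to 127 CPM in HSC and 1042.5 to 2448.7 CPM in MPP. In each MPP library most of that sum was Ighm and Igkc, so it says little about the other markers. Of the defining markers, Pax5 and Cd22 were at 0 in all HSC libraries. Ighg1, an IgG constant region, was at 0 in 6 libraries and reached 549 and 272 CPM in the MPP libraries labelled IFNAR and DKO, and its call therefore rests on those libraries. T and NK cell markers summed to 0 to 42.0 CPM against 45.3 to 88.3 CPM, with Cd3e, Cd3d, Cd3g and Trac at 0 in all 8. The part of other cells in the lymphoid differences was not tested.

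Myeloid priming genes were lower in HSC as well. Of 19 at 50 CPM or more, 17 were lower, 15 of them in all 4 pairs, and 7 fell, with a median of -2.83. Of the 7, 4 were under 50 CPM in HSC (Ctsg, Nkg7, Ly6c2 and Cd53). Nkg7, a granule membrane protein of cytotoxic cells that early myeloid progenitors also transcribe, had 40.9, 66.2, 34.0 and 44.7 CPM in HSC and 315, 356, 291 and 371 CPM in MPP (adjusted p = 0.00244). Plac8, a gene of early myeloid cells, had 67.1, 117, 85.3 and 26.1 CPM against 510, 423, 630 and 508 CPM (adjusted p = 0.0149). Emb, which encodes the adhesion protein embigin, had 85.8, 117, 166 and 176 CPM against 503, 503, 485 and 453 CPM (adjusted p = 0.0126).

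Of the neutrophil granule proteases, Ctsg and Prtn3 also fell. Elane (neutrophil elastase) had 37.3, 13.1, 100.5 and 0 CPM in HSC and 782, 418, 1397.1 and 1144.4 CPM in MPP. Its groups did not overlap, but it did not pass (adjusted p = 0.125). Ctsg (cathepsin G) had 16.5, 0, 23.8 and 7.52 CPM in HSC and 627, 319, 1082.1 and 880 CPM in MPP (adjusted p = 0.0302). Prtn3 (proteinase 3) had 126, 142, 224 and 177 CPM against 444, 262, 620 and 504 CPM (adjusted p = 0.0201). Mpo (myeloperoxidase) was the most abundant of the list, with 147, 47.0, 303 and 0 CPM against 6182.2, 3742.6, 8756.8 and 8026.0 CPM. Its groups lay far apart, but the spread within HSC was wide and it did not pass (adjusted p = 0.113). Ly6c2, a monocyte surface gene, and Cd53, a leukocyte tetraspanin, fell too (adjusted p = 0.0257 and 0.0419). Serpinb1a, an inhibitor of neutrophil proteases that was on no list, fell from 325 to 544 CPM in MPP to 78.2 to 108 CPM in HSC (adjusted p = 0.00551). In the MPP library labelled N5, Mpo, Ctsg and Prtn3 were the lowest of their group.

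Markers of mature myeloid cells overlapped between the groups. The 12 neutrophil markers, among them S100a8 and S100a9, summed to 605 to 745 CPM in HSC and 146 to 950 CPM in MPP, and edgeR called 0 of 5 at 50 CPM or more, with 0 at an unadjusted p under 0.05 and 0 by DESeq2. The 14 monocyte, macrophage and dendritic cell markers summed to 699 to 1113.7 CPM and 537 to 832 CPM. Lyz2 was the 1 member at 50 CPM or more and did not pass edgeR's test (adjusted p = 0.158). Its unadjusted p was under 0.05, and DESeq2 called it. Mrc1, Marco and Cd209a were at 0 in all 8 libraries.

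**Figure D3:**
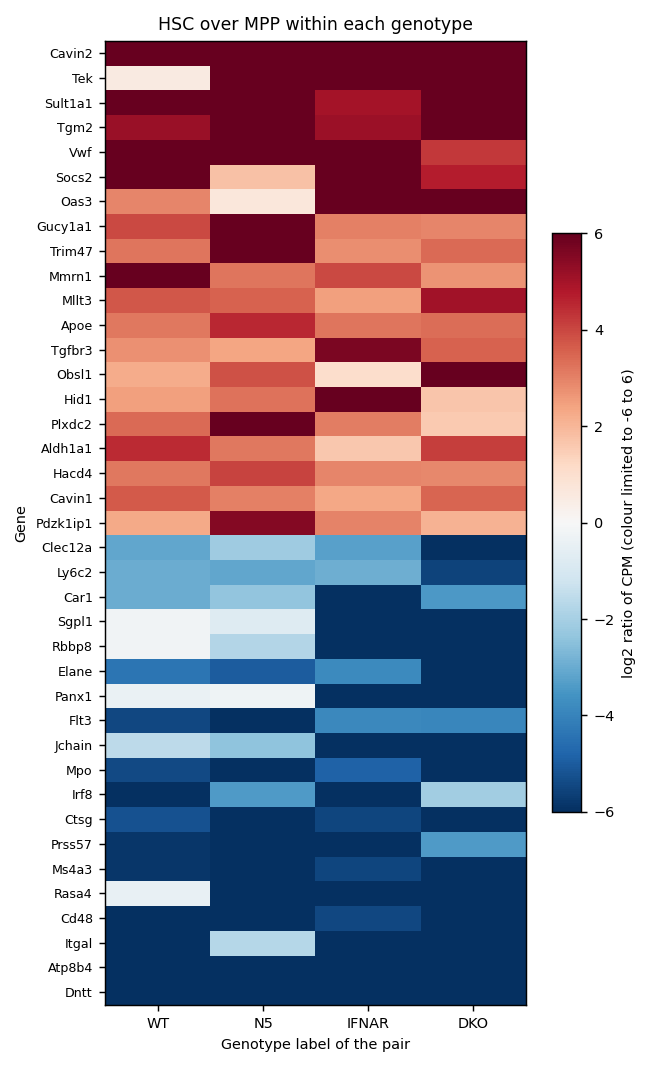
Log2 ratio of HSC over MPP within each genotype label (columns) for 20 genes among the furthest higher and 19 among the furthest lower in HSC (rows) with a mean of 50 CPM or more and 1 direction in all pairs, with colour limited to -6 to 6. The rows were chosen for that direction, and sizes vary between columns, as in Tek, Oas3, Panx1 and Rasa4, where some pairs hold a library at 0.

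Genes of DNA replication were lower in HSC. Of 32 at 50 CPM or more, 31 were lower, 19 of them in all 4 pairs, and 2 fell, with a median of -0.67. Both encode subunits of the MCM helicase that licenses replication origins. Mcm7 had 451, 425, 453 and 477 CPM in HSC and 895, 824, 912 and 816 CPM in MPP (adjusted p = 0.0152). Mcm6 had 709 ± 94.4 CPM against 1205.6 ± 265 CPM (mean ± SD, n = 4 libraries per cell type, adjusted p = 0.0286). Chaf1b, a histone chaperone subunit, was the 1 member higher in HSC (log2 0.39, adjusted p = 0.456).

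Genes of mitosis were lower in HSC in all 37 members at 50 CPM or more, 27 of them in all 4 pairs, and 5 fell, with a median of -0.91. Top2a, the topoisomerase that untangles sister chromatids, had 243, 129, 224 and 228 CPM in HSC and 613, 679, 834 and 561 CPM in MPP (adjusted p = 0.0144). Stmn1, which encodes the microtubule regulator stathmin, had 722.5 ± 61.3 CPM against 1405.7 ± 48.7 CPM (mean ± SD, n = 4, adjusted p = 0.00866). Ect2 and Incenp, needed for cytokinesis and chromosome alignment, fell by 1.68 and by 1.22 on the log2 scale (adjusted p = 0.0404 and 0.0419). The mean of Ect2 was under 50 CPM in HSC. Hmgb2, a chromatin protein abundant in dividing cells, also fell (adjusted p = 0.0221). Mki67, the common proliferation marker, had 40.9 to 111 CPM against 119 to 232 CPM and did not pass (adjusted p = 0.101).

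Regulators of entry into the cycle went both ways. Of 14 at 50 CPM or more, 3 rose and 1 fell. Cdk6, a kinase that drives exit from quiescence, had 296, 309, 243 and 187 CPM in HSC and 733, 668, 568 and 748 CPM in MPP (adjusted p = 0.0169). Its partner cyclin D2, Ccnd2, lay the other way, with 822.5, 725.5, 628 and 608 CPM against 347, 397, 188 and 280.0 CPM (adjusted p = 0.0157). Txnip, which restrains glucose uptake and growth, had 1374.2, 977, 1310.4 and 1500.2 CPM against 514, 513, 621 and 633 CPM (adjusted p = 0.00617). The third was Mycn. Its relative Myc had 394 to 607 CPM against 548 to 783 CPM and did not pass (adjusted p = 0.228).

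Few growth and energy genes passed. In edgeR 0 of 31 ribosome biogenesis genes at 50 CPM or more passed (3 at an unadjusted p under 0.05, 3 called by DESeq2), with a median of -0.01. For oxidative phosphorylation it was 0 of 39 (3 and 4, median -0.09), for lysosome genes 0 of 23 (5 and 5, median 0.10) and for mitochondrial and 18S rRNA genes 0 of 13 (3 and 3, median -0.18). Summed over all members, ribosome biogenesis genes had 6567.8 to 6955.8 CPM in HSC and 7417.1 to 8202.7 CPM in MPP. Oxidative phosphorylation genes had 9210.5 to 9766.5 CPM against 10044.9 to 10318.8 CPM, also without overlap. Sums of lysosome genes and of mitochondrial and 18S rRNA genes overlapped. Of 22 glycolysis genes, 14 were higher in HSC, 7 of them in all 4 pairs, and 8 were lower, 5 in all pairs, with a median of 0.16. Of all genes at that level, 12.0% were higher and 15.2% lower in all 4 pairs. Among the 22 glycolysis genes 2 passed, and both fell. Hk3, the hexokinase of myeloid cells, had 69.2, 114, 98.4 and 84.4 CPM against 314, 292, 313 and 273 CPM (adjusted p = 0.0126). Pgam1, phosphoglycerate mutase, had 143, 219, 216 and 192 CPM against 498, 510, 493 and 409 CPM (adjusted p = 0.0183). Ldhb, a lactate dehydrogenase subunit, had 153, 148, 143 and 143 CPM against 111, 39.9, 28.3 and 52.7 CPM without overlap and did not pass (adjusted p = 0.0890). Immediate early genes, which respond within minutes to stress or handling, had 7 members at that level, of which edgeR called 0, with 2 at an unadjusted p under 0.05 and 2 by DESeq2. All members of that list summed to 2570.6 to 2788.0 CPM in HSC and 3015.3 to 3558.4 CPM in MPP. Much of these sums was Hsp90aa1, with 1211.9 to 1587.0 CPM in HSC and 1657.3 to 2362.8 CPM in MPP. The sums therefore say little about the other members. Of the 20 members tested, 4 were higher in HSC in all 4 pairs and 3 lower. Their median was 0.23, against -0.07 for those at 50 CPM or more.

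**Figure D4:**
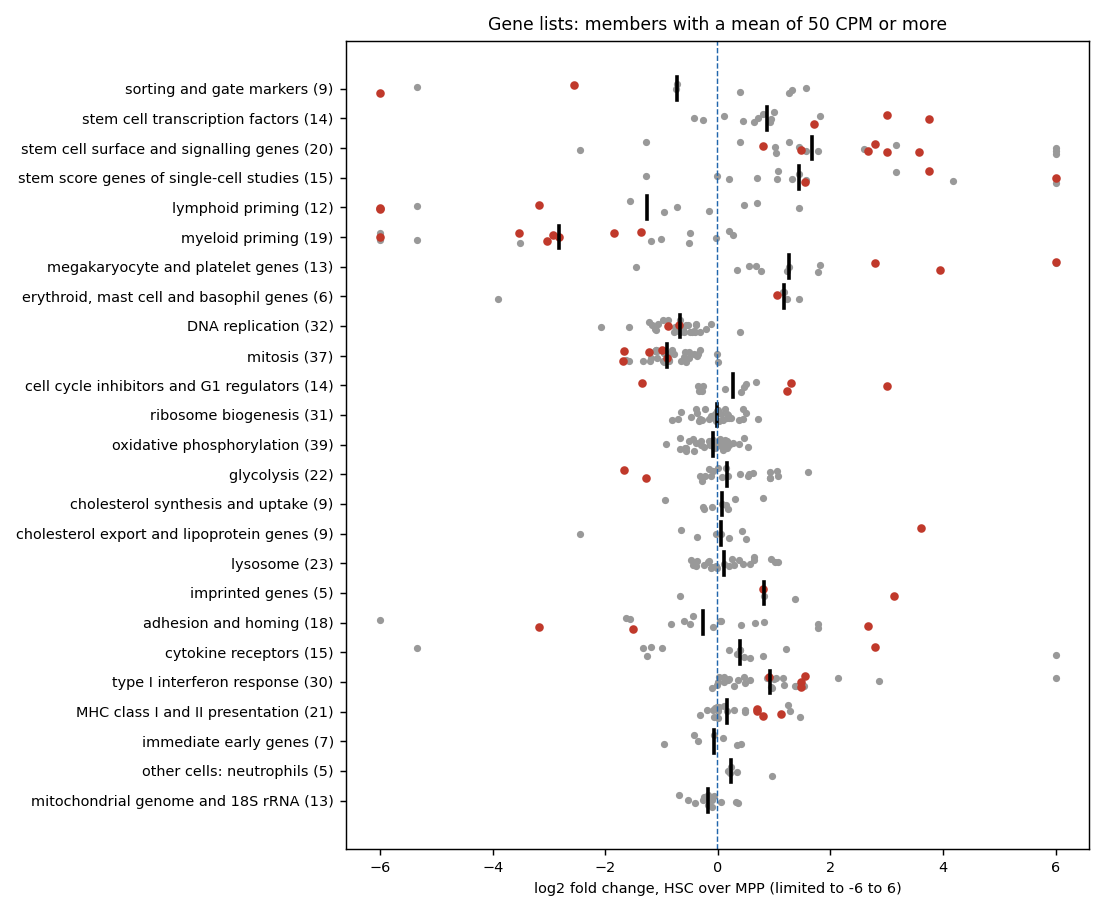
Log2 fold change of HSC over MPP (limited to -6 to 6) for each member with a mean of 50 CPM or more of the 25 lists with at least 5 such members, with the number in brackets. Red points are called, black bars are list medians and the dashed line is the median of all 4670 genes. Stem cell surface, megakaryocyte and interferon lists lie mostly to the right, and myeloid, replication and mitosis lists mostly to the left.

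Type I interferon response genes were higher in HSC. Of 30 at 50 CPM or more, 27 were higher, 16 of them in all 4 pairs, and 4 rose, with a median of 0.92. Ifitm1, an antiviral membrane protein that is also counted among stem cell genes, had 464, 536, 542 and 672 CPM in HSC and 187, 188, 188 and 218 CPM in MPP (adjusted p = 0.00499). Ifitm3, its relative, had 465, 580, 396 and 496 CPM against 234, 205, 147 and 148 CPM (adjusted p = 0.0105). Lgals3bp, a secreted glycoprotein induced by interferon, rose by 0.91 on the log2 scale (adjusted p = 0.0367).

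Genes induced by interferon but outside the list also passed. Uba7, the activating enzyme for the ubiquitin-like protein ISG15, had 709, 1223.7, 703 and 735 CPM in HSC and 291, 334, 186 and 270 CPM in MPP (adjusted p = 0.00499). Tgtp2, an interferon-induced GTPase, had 782, 1041.3, 705 and 529 CPM against 289, 430, 267 and 270 CPM (adjusted p = 0.00634). Summed over the 56 interferon genes, HSC had 7646.0, 8212.0, 5452.1 and 6195.5 CPM and MPP 5431.4, 4950.4, 3789.3 and 3779.7 CPM. The HSC library was the higher of each pair, and within each cell type the libraries labelled IFNAR and DKO were the lower ones.

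Class I genes of antigen presentation moved with them. Of 21 presentation genes at 50 CPM or more, 14 were higher in HSC and 4 rose, all of them class I heavy chains, with a list median of 0.16. In HSC H2-K1 had 4442.9 ± 407.5 CPM, against 2861.7 ± 518 CPM in MPP, and H2-D1 had 3318.5 ± 217 CPM against 2143.5 ± 330 CPM (mean ± SD, n = 4, adjusted p = 0.0108 and 0.00973). H2-Q7 and H2-Q6 also rose (adjusted p = 0.0302 and 0.0442). These genes have near-identical copies, so reads may have been shared between them. B2m, the class I light chain, had 1690.8 to 2010.4 CPM against 1166.4 to 1647.7 CPM without overlap and did not pass (adjusted p = 0.0623). Class II genes overlapped between the groups: Cd74, the invariant chain, had 422 to 557 CPM in HSC and 339 to 702 CPM in MPP (adjusted p = 0.980).

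**Figure D5:**
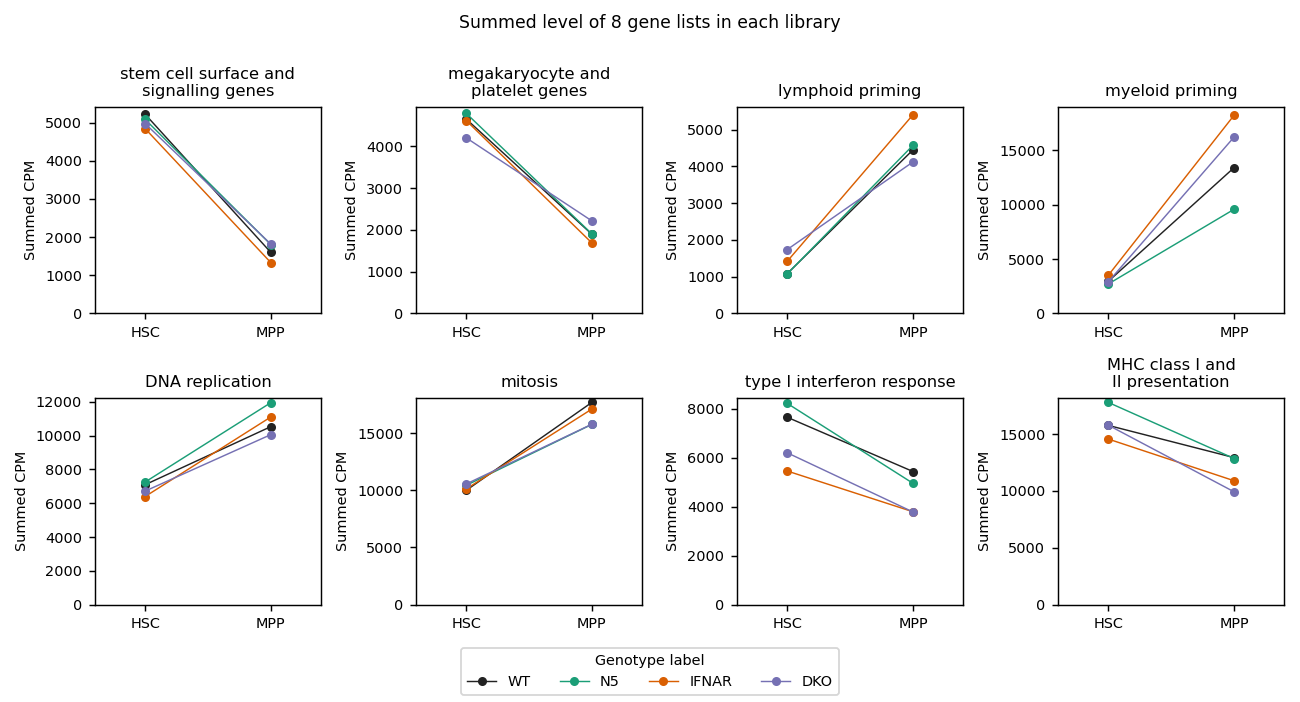
Summed CPM of all members of 8 gene lists, on linear axes that start at 0, 1 point per library, with lines joining HSC and MPP of the same genotype label. In each panel every line runs 1 way, and the libraries labelled IFNAR and DKO are the lower ones of each cell type for the interferon list.

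Adhesion genes differed in both directions. Of 18 adhesion and homing genes at 50 CPM or more, 1 rose (Esam) and 2 fell, Cd44 among them. Cd44, the hyaluronan receptor, had 56.4, 74.4, 95.9 and 50.8 CPM in HSC and 185, 279, 170 and 175 CPM in MPP (adjusted p = 0.0442). Itgal, an integrin chain of leukocytes, was at 0 in 3 HSC libraries and at 24.6 CPM in that labelled N5, against 81.7 to 128 CPM in MPP (adjusted p = 0.113). Ramp1, part of the receptor for the neuropeptide CGRP, fell from 267 to 338 CPM in MPP to 88.6 to 116 CPM in HSC (adjusted p = 0.00772).

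The 4 pairs were then compared with each other. At 50 CPM or more, the HSC library was at least 2-fold higher for 458 to 605 genes and at least 2-fold lower for 565 to 662 genes in a pair. Only 46 and 61 genes were so in all 4 pairs. Pearson correlations of the log2 ratio between pairs, across 4669 genes that are not independent replicates, were 0.299 to 0.397. The share of genes with the same direction in all 4 pairs rose with abundance, from 16.3% under 10 CPM to 23.4% at 50 to 100 CPM and 44.9% at 500 CPM or more. Libraries did not overlap for 276 genes higher in HSC (5.91%) and 357 lower (7.64%) at 50 CPM or more.

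Whether the HSC to MPP difference depended on a genotype label was tested as an interaction. Over all genes edgeR called 0 for the Nfat5 label and 0 for the Ifnar1 label, with 536 and 585 at an unadjusted p under 0.05. DESeq2 called 585 and 607, and limma-voom called 0 for each. At 50 CPM or more edgeR called 1 gene for the Nfat5 label. Tgm2, a transglutaminase, had 839, 922, 540 and 834 CPM in HSC and 23.1, 0, 15.4 and 0 CPM in MPP (adjusted p = 0.00359). For the Ifnar1 label it called Igha, Jchain and Panx1 (adjusted p = 0.0103, 0.0138 and 0.0181). The HSC libraries labelled IFNAR and DKO were at 0 for these, while those labelled WT and N5 had 203 and 79.3 CPM of Igha, the IgA constant region, and 57.6 and 62.9 CPM of the channel gene Panx1. Without any 1 library, Tgm2 was still called (adjusted p = 0.00640 to 0.0354). Igha and Jchain were not called without the MPP library labelled WT (adjusted p = 0.140 and 0.169) or that labelled N5 (adjusted p = 0.107 and 0.196), and Panx1 had a mean under 50 CPM and was not tested in 5 of the 8 fits. In all of these calls 1 cell type held libraries at 0, and Igha and Jchain are plasma cell genes, whose part was not tested.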

How the data were processed

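Polyadenylated RNA of each pool was amplified with Smart-Seq2, which marks neither strand nor molecules, per the labels' protocols. The tools named in the submitters' processing notes are STAR 2.7.8a and RSEM 1.3.0, with build GRCm39, and the authors deposited whole-number counts per gene without normalization. Overlapping, antisense and near-identical genes may therefore share reads. The HSC and MPP libraries were compared with edgeR 4.0.16 (R 4.3.3): TMM factors, filterByExpr by cell type (12132 genes, 99.5% of counts), quasi-likelihood F test of the older kind, a genotype block that left 3 degrees of freedom, Benjamini-Hochberg at 0.05. The same fit was run over 4670 genes. Interaction fits had no genotype block. They held cell type, the Nfat5 label, the Ifnar1 label and the tested interaction, with DKO counted under both labels and 3 residual degrees of freedom. No group had replicates, so p-values measure only the spread between these pools. Floors were 3 counts per library and cover counting error only. Scripts were tested on simulated data. Log2 ratios used a prior count of 2. Of the 57 and 42 genes that passed, 46 and 34 matched the RefSeq promoter table. The genes and 30 lists were chosen with earlier results of these data known. Named genes were the 6 markers, genes called over all genes, the 20 largest differences each way with 1 direction in all pairs, up to 5 per list and the 10 most abundant at 2-fold or more, 123 in all. Others were named after their values were seen, and some results are not reported here. Alternatives were RLE factors, other filters, DESeq2 1.42.0, limma-voom (limma 3.58.1), other quasi-likelihood options, no block, thinning and leaving out libraries or pairs.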

Additional observations from a re-analysis of the deposited data

Results flagged for a closer look

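In 248 groups of 4 libraries checked, 28 held a highest or lowest library far from the other 3 by Dixon's test, which for normally distributed values chance gives in about 1 group in 20. That rate does not hold for low counts. In 5 of the 28 the other 3 libraries were at 0, where any count stands apart (Slamf1, Cd48, Dntt, Tek and Itgal). In HSC, single high libraries were Dntt in that labelled WT at 0.0290 CPM, Atp8b4 in WT at 0.203 CPM, Rasa4 in WT at 48.1 CPM, Gfi1b in WT at 220.5 CPM, Cd48 in IFNAR at 6.36 CPM, mt-Nd4 in IFNAR at 1184.0 CPM and Prss57 in DKO at 10.98 CPM. The HSC library labelled N5 was high for Hid1 at 127 CPM, Itgal at 24.6 CPM, Igkc at 13.5 CPM and Uba7 at 1223.7 CPM, and low for Mecom at 119.6 CPM, Top2a at 129 CPM and Dkc1 at 216 CPM. Low HSC libraries were Tyms in WT at 36.1 CPM and Car1 in IFNAR at 0 CPM.

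In MPP, Tek was high in the library labelled WT at 41.5 CPM. The library labelled IFNAR was high for Slamf1 at 0.0275 CPM, Sult1a1 at 5.92 CPM, mt-Nd2 at 213 CPM and Hmgb2 at 893 CPM. That labelled N5 was low for Apoe at 57.7 CPM and Ndufb8 at 105 CPM and high for Tgtp2 at 429.5 CPM. That labelled DKO was high for Tyms at 274 CPM, Cd63 at 232 CPM and Ifitm1 at 218 CPM, and low for Pgam1 at 409 CPM.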

How the results depend on the processing

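With 3 residual degrees of freedom, the count of calls depended on the fit. Over all genes, 2 genes passed, as with RLE factors, no filter and robust quasi-likelihood, while 23 passed with 10 CPM in 4 libraries, 99 at a mean of 50 CPM, 107 with bias-adjusted quasi-likelihood, 156 with limma-voom, 207 with no replicate block and 1880 with DESeq2. Leaving out a library or a genotype pair gave 0 calls in each fit. At 50 CPM or more, settings added after seeing the data gave 101 calls with RLE factors, 147 with limma-voom, 165 with the bias-adjusted method, 211 with no replicate block, 806 with DESeq2, and 25 to 58 when a library or a pair was left out. DESeq2 and the bias-adjusted method shared 98 and 99 of the 99 genes, the fit without the block 95 and limma-voom 75. The interaction with the Nfat5 label gave 0 calls over all genes, also in each fit without 1 library, 585 with DESeq2 and 1 at 50 CPM. That with the Ifnar1 label gave 0, 607 and 3. At 50 CPM, leaving out a library, added after seeing the data, gave 1 to 14 calls for the Nfat5 label and 0 to 22 for the Ifnar1 label. Genes whose libraries did not overlap numbered 633, or 1035 at 10 CPM, 399 at 100 CPM and 1036 to 1079 without a pair. Same-genotype libraries did not deviate together (correlations of deviations -0.04 to -0.02) and the sources do not say whether they share mice, so the replicate block rests on the labels alone. No named gene changed direction under any alternative run. Nearly all of them were chosen for 1 direction in all 4 pairs, so that outcome was largely fixed by the choice. List medians changed sign for 9 of 29 lists in some alternative, among them erythroid, lysosome, Hox, cytokine receptor and immediate early genes. The cause of these shifts was not tested. Depth limits values at 0, where 3 counts are 0.0633 to 0.105 CPM in a library. Thinned to the smallest total, 636 genes had libraries that did not overlap. No other result was recomputed on thinned counts.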
